A study of Mus musculus with 4 samples.

Results

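Il17rb encodes the interleukin-25 receptor subunit IL-17RB, and the cells described here are group 2 innate lymphoid cells (ILC2) of mouse pancreas divided by whether reads of this gene were found in them. A cell counted as Il17rb-positive at 16 reads or more and as Il17rb-negative below that. Of 98 non-photoconverted cells of plate 1 that passed the filters, 30 were Il17rb-positive and 68 were Il17rb-negative, out of 1170 cells sorted over the 4 plates of the series. The members were chosen by their reads of Il17rb itself, so the level of this gene is a description and every comparison concerns other genes of the same cells.

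The study, titled as one on fasting and pancreatic ILC2, sorted single ILC2 by flow cytometry into plates of 384 wells for SORT-seq, a plate-based relative of CEL-seq2 in which only the 3′ end of each polyadenylated transcript is sequenced. All cells are labelled as C57BL6J in genotype and carry KIKR, a fluorescent protein that switches from green to red under violet light. The Il17rb-positive and Il17rb-negative cells share plate, sort batch, tissue, genotype and colour (KIKR-Green, not photoconverted). The feeding state, number, sex and age of the animals behind plate 1 are not given in the sources used here. Plate 1 is 1 sample that holds both groups, so cells are not replicates, no test was possible and no p-value is given. The 95% intervals are exact binomial (Clopper-Pearson) and cover counting error of cells only.

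As background, interleukin-25 is made by tuft cells among others and binds a receptor of IL-17RB and IL-17RA. The adaptor Act1, encoded by Traf3ip2, and the ubiquitin ligase TRAF6 then pass the signal to NF-kB and MAP kinases. Together with interleukin-33, thymic stromal lymphopoietin and neuropeptides, it drives ILC2 to make interleukin-5, interleukin-13 and amphiregulin. ILC2 differ in how much of each alarmin receptor they carry. So-called inflammatory ILC2 of the intestine are known for high IL-17RB and KLRG1 with low Thy1 and low interleukin-33 receptor, which is encoded by Il1rl1.

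Il17rb lies on chromosome 14 from 29996135 to 30008896 on the minus strand (GENCODE M21 on mm10). In the positive cells its reads ran from 24 to 906 with a median of 107.5, or 112 to 1568 CPM, the count scaled to 1000000 gene reads, with a median of 287. In the negative cells they ran from 0 to 15 with a median of 0. Thus 50 negative cells had no read of the gene and 18 had 1 to 15, while 14 positive cells had 16 to 99 reads and 16 had 100 or more. Just inside the limit lay 2 cells with 24 reads, and just outside it lay 1 cell with 15. No cell lay between those values.

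Wells without a sorted cell gave the background of the assay. None of 221 such wells held 16 Il17rb reads, which by the rule of 3 counts allows a share of up to 1.36% (exact upper limit 1.66%), and 8 of them (3.62%) held at least 1 read. The Il17rb-positive share of green cells was 30.6% (95% interval 21.7 to 40.7%). Among the 8 photoconverted cells of the plate that passed, 1 was positive (12.5%, interval 0.316 to 52.7%). The photoconverted interval is too wide to place that share above or below the green one.

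Il17rb-positive cells were the more deeply read cells. They had 1136 to 4479 genes at 1 read or more with a median of 2482, against 502 to 3458 with a median of 1359 in negative cells, a 1.83-fold ratio of medians. The groups overlapped broadly, and only 2 positive cells lay above the deepest negative cell. Median gene reads were 352891 against 129512, whereas reads of the ERCC spike-in RNA added to each well were 65455 against 70299. Gene reads per spike-in read were therefore 5.37 in positive and 1.69 in negative cells at the median. Mitochondrial reads were alike, at 9.70% and 9.39%.

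The share of positive cells followed the number of genes detected. None of the 25 cells with 502 to 1020 genes was positive, 4 of 25 were with 1114 to 1639 genes, 8 of 24 with 1682 to 2373, and 18 of 24 (75%, interval 53.3 to 90.2%) with 2428 to 4479. Among cells with the fewest genes Il17rb thus never reached 16 reads, and a negative cell is one without detected reads, not one shown to lack the receptor. More RNA in positive cells and better capture of it cannot be told apart here. Red fluorescence overlapped as well, from -1035 to 1527 arbitrary units with a median of 46.5 in positive cells and from -2415 to 986 with a median of -43 in negative cells.

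**Figure D1:**
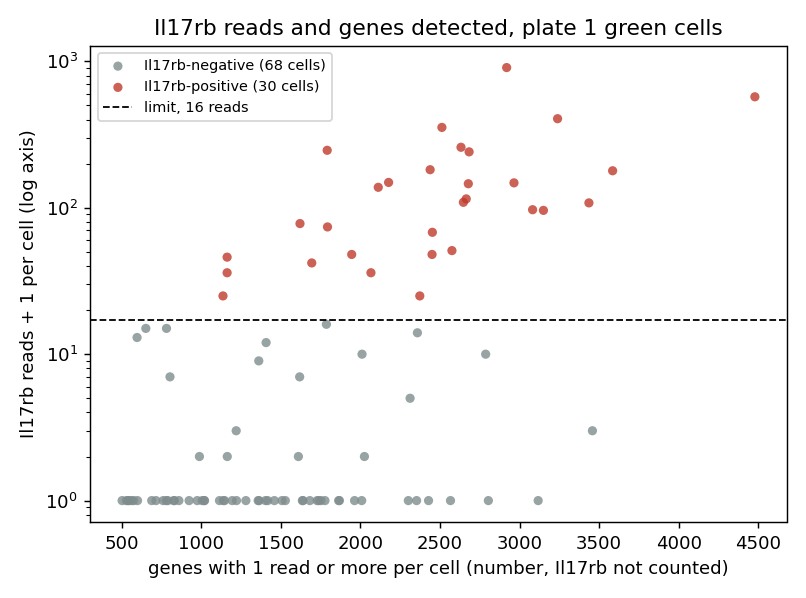
Il17rb reads plus 1 per cell (log axis) against the number of genes with 1 read or more in the 30 Il17rb-positive (red) and 68 Il17rb-negative (grey) green cells. The dashed line is the limit of 16 reads; positive cells begin at 1136 genes and lie mostly at the right.

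Because of this gap every gene was compared with negative cells of like depth. Each positive cell was set beside the 3 negative cells nearest in genes detected, with reuse, which brought the weighted median of the matched negatives to 2428 genes and 366060 gene reads. This drew on 27 distinct negative cells with the weight of 15.1 equal ones, and 1 of them carried 14.4% of the weight. For all other genes too, detection in a cell meant 16 or more reads, and differences in the share of cells are given in percentage points, called points from here on. Shares of matched negatives are weighted and have no interval.

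Both groups carried marker genes of ILC2. At least 3 of 16 ILC2 markers other than Il17rb were detected in 30 of 30 positive and 63 of 68 negative cells, and summed marker levels had medians of 12701 and 12142 CPM. All 27 negatives used as matches reached 3 ILC2 markers, including 2 with at least 3 T cell markers described below. The count therefore does not show that a given cell is an ILC2. Gata3, the transcription factor that specifies ILC2, was detected in all 30 positive cells (interval 88.4 to 100%), in 86.7% of matched negatives and in 52 of 68 negatives overall (76.5%). Its reads ran from 61 to 4532 with a median of 881 in positive cells and from 0 to 1893 with a median of 134.5 in negative cells. Mean Gata3 levels were 3164 CPM in positive cells and 1687 CPM in matched negatives, a higher level per gene read in positive cells.

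Markers of other lineages were only partly measured. Rows existed for 5 of 11 T cell, 1 of 8 B cell and 5 of 11 NK cell or ILC1 markers. They also existed for 6 of 10 ILC3 and 5 of 17 myeloid markers, and the rest could not be seen. Among the T cell genes were those of the T cell receptor complex. Its chain gene Cd3e reached 16 reads in no cell of either group, and Cd3d in 0 positive and 2 negative cells. Cd3g, however, was detected in 1 of 30 positive cells (3.33%), in 8 of 68 negatives (11.8%) and in 42.2% of matched negatives, because 6 of these 8 cells were used as matches. Mean Cd3g levels were 23.2 CPM in positive cells, 382 CPM in matched and 113 CPM in all negatives.

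At least 3 of 5 T cell markers were found in 0 positive and 2 negative cells, which both served as matches and carried 7.78% of the weight. Prf1 of cytotoxic cells, Cd68 of macrophages and Il23r of ILC3 were detected in no cell of either group, and none of 5 acinar or ductal genes was. Other markers of those lineages were found. At least 1 ILC3 marker was detected in 25 of 30 positive and 30 of 68 negative cells. At least 1 myeloid marker was detected in 17 positive and 17 negative cells, and at least 1 NK cell or ILC1 marker in 4 and 4. These counts take all negatives, which were less deeply read. Of the 27 negatives used as matches, 19 had an ILC3 marker, 11 a myeloid marker and 2 an NK cell or ILC1 marker. At least 3 myeloid markers were found in 1 positive and 2 negative cells, the latter again both used as matches, with 6.67% of the weight. Cst3, a protease inhibitor gene abundant in myeloid cells, was detected in 50.0% of positive and 26.7% of matched negative cells, and its part in the results was not tested.

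The comparison was therefore repeated without the 9 cells that had 16 reads of Cd3d, Cd3e or Cd3g, an alternative chosen after seeing the data. It left 29 positive and 60 negative cells. Of 77 genes named here with differences of 20 points or more, 51 were again past 20 points, 31 of 47 higher and 20 of 30 lower ones. Gata3 was then detected in 100% of positive and 96.6% of matched negative cells, with mean levels of 3079 and 2350 CPM, so most of the gap in its share closed. For many of the other genes the value without these cells is given further on.

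Among 14 ILC2 markers abundant enough to compare, 11 were detected in a larger share of positive than of matched negative cells and 3 in a smaller one, with a median of 13.3 points. Over all 3013 genes compared the median was 2.22 points. Klrg1, an inhibitory receptor of mature ILC2, was found in 27 of 30 positive cells (90.0%), in 76.7% of matched negatives and in 42.6% of all negatives. Il7r, the interleukin-7 receptor on which ILC2 depend, was found in 83.3%, 65.6% and 51.5%. For both genes the gap to positive cells was smaller with matched than with all negatives. Without the CD3 chain cells Klrg1 differed by 5.75 points and Il7r by 13.8. Over the alternatives the lowest difference was -9.52 points for Klrg1 and 7.78 for Il7r.

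Il1rl1, the interleukin-33 receptor, stood apart from the other markers. It was detected in about as many positive (83.3%) as matched negative cells (77.8%), yet its mean level was 1299 CPM in positive cells and 2146 CPM in matched negatives. Without the CD3 chain cells the difference in its share was -12.6 points. Reads of Il1rl1 ran from 1 to 2582 in positive and from 0 to 2883 in negative cells, so the groups overlapped over nearly the whole range. Thy1 and Arg1 were the markers detected in smaller shares of positive cells by 20 points or more.

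**Figure D2:**
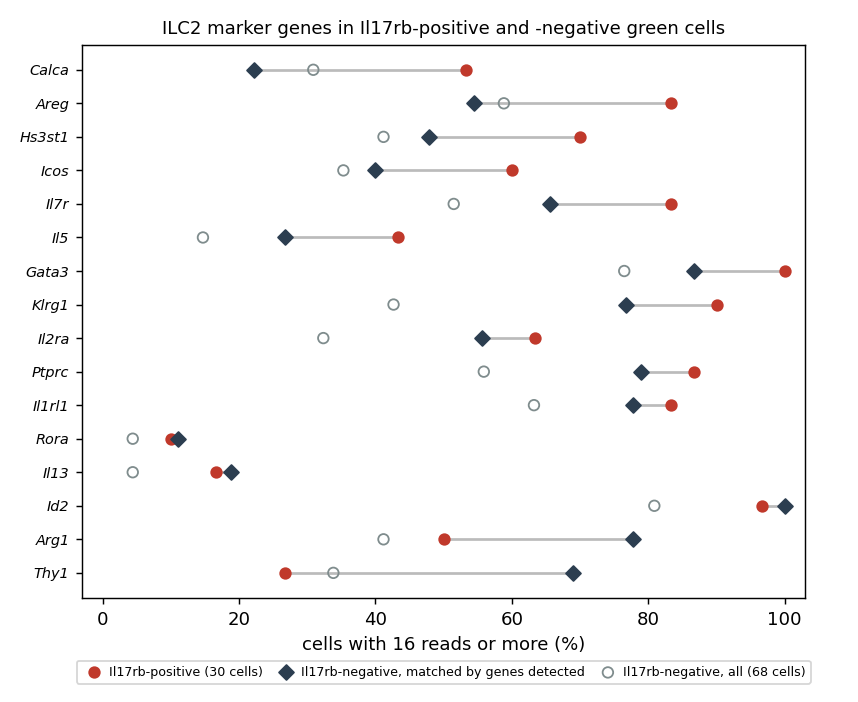
Share of cells (%) with 16 reads or more of each ILC2 marker in Il17rb-positive cells (red), depth-matched Il17rb-negative cells (dark diamonds) and all Il17rb-negative cells (open circles). Against the matched negatives, Calca and Areg have the widest gaps with the red point to the right, and Thy1 and Arg1 the widest with it to the left.

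Across all genes, 3013 were detected in at least 10% of the 98 cells of both groups. Of these, 290 (9.62%) were detected in a share of positive cells at least 20 points above that of matched negatives, and 183 (6.07%) in a share at least 20 points below. A gene found in under 10% of negatives entered only through positive cells, so its difference is set in part by that limit. Without matching the counts were 1017 and 0, with a median difference of 15.8 points. A further view used 21 positive and 26 negative cells with 1500 to 3000 genes, whose median genes still differed, at 2450 and 1865.5. There 162 of the 290 genes and 32 of the 183 were again past 20 points in the same direction.

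The genes with the largest positive differences were not classical ILC2 genes. Bzw2, a regulator of translation initiation (chromosome 12, 36091835 to 36158080, minus strand), was detected in 24 of 30 positive cells (80.0%, interval 61.4 to 92.3%), in 31.1% of matched negatives and in 25% of all negatives. Its reads had a median of 62.5 and a highest value of 439 in positive cells, against 2 and 207 in negative cells. Epas1, which encodes the hypoxia-inducible factor HIF-2 alpha (chromosome 17, 86753700 to 86833410, plus strand), was detected in 20 of 30 positive cells (66.7%, interval 47.2 to 82.7%), in 18.9% of matched and in 19.1% of all negatives. Most positive cells thus carried Epas1, with a median of 107.5 reads, and most negative cells had none.

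The Epas1 difference was past 20 points under all 16 alternatives that changed a read limit, a filter or the matching, as were those of Bzw2, Arfgef1, Macf1 and Gpi1. Arfgef1 entered the comparison only through its share in positive cells, as did some genes named below. In the cells with 1500 to 3000 genes Epas1 was detected in 66.7% of positives and 19.2% of negatives, and its mean level was 434 CPM in positive cells against 110 CPM in matched and 171 CPM in all negatives. Kdm6b, a demethylase of histone H3 lysine 27, was detected in 66.7% of positive and 23.3% of matched negative cells. Gpr65, a proton-sensing receptor that raises cyclic AMP, was detected in 73.3% and 33.3%, with mean levels of 615 and 145 CPM. The cell cycle inhibitor gene Cdkn1b was found in 50.0% and 8.89% of cells.

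The remaining genes of the largest positive differences have general cell functions. They were Arfgef1 and Arhgef3, exchange factors for small GTPases, the RNA-binding Hnrnpf, the lysosomal Ragulator subunit Lamtor5, the cytoskeletal linker Macf1, the glycolytic enzyme Gpi1 and the RNA polymerase III factor subunit Gtf3c2. Their positive shares ran from 43.3% for Lamtor5 and Gtf3c2 to 73.3% for Hnrnpf. Lamtor5 and Gtf3c2, found in 4.41% and 5.88% of all negatives, entered the comparison only through positive cells, as Arfgef1 did. Arfgef1 had the smallest matched share, at 1.11% against 46.7% in positive cells. Each of these remaining genes was also detected in a larger share of positive than of all negative cells, as most genes were without matching (median 15.8 points, lower quartile 9.41). Mean Macf1 levels, however, were 446 CPM in positive cells, 337 CPM in matched negatives and 725 CPM in all negatives.

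**Figure D3:**
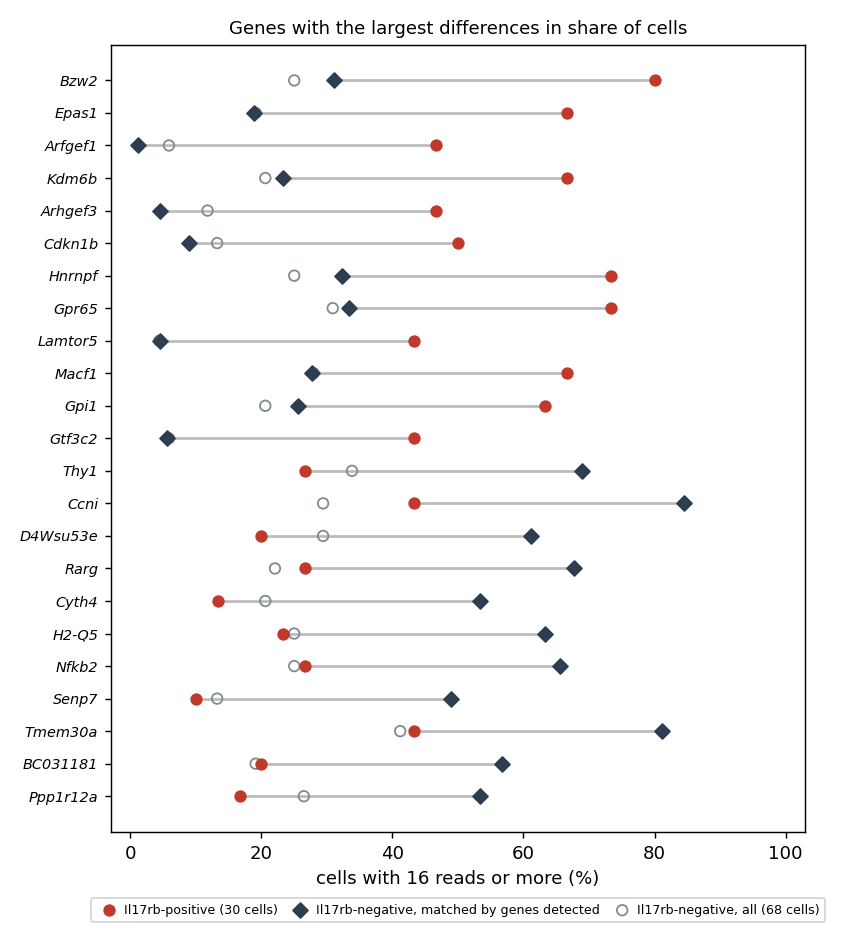
Share of cells (%) with 16 reads or more for 12 genes among those with the largest positive and 11 among those with the largest negative differences, in Il17rb-positive cells (red), depth-matched negatives (dark diamonds) and all negatives (open circles). For the upper 12 genes both kinds of negative lie left of the positive cells; for the lower 11 the matched negatives lie far to the right while all negatives lie nearer to the red points.

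Genes with the largest negative differences differed by 20 points from depth-matched negatives only, since against all negatives no gene did. Thy1, a surface glycoprotein of lymphocytes (chromosome 9, 44043384 to 44048579, plus strand), was detected in 8 of 30 positive cells (26.7%, interval 12.3 to 45.9%), in 68.9% of matched negatives and in 33.8% of all negatives. Its reads ran from 0 to 580 with a median of 5 in positive and from 0 to 2892 with a median of 4 in negative cells. Mean levels of Thy1 were 165 CPM in positive cells, 1379 CPM in matched negatives and 834 CPM in all negatives. Thy1 was therefore lower in positive cells on the CPM scale against either set of negatives, and in cells with 1500 to 3000 genes the shares were 19.0% and 57.7%.

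T cells also carry Thy1. The summed level of 5 T cell markers ran from 0 to 2100 CPM with a median of 83.8 CPM in positive cells, and from 0 to 3916 CPM with a median of 265 CPM in the negatives used as matches. In all negatives its median was 37.9 CPM. At least 1 of these markers was detected in 15 of 30 positive cells and 18 of the 27 matches. Without the cells that had a CD3 chain gene, Thy1 was detected in 24.1% of positive and 72.4% of matched negative cells, with mean levels of 148 and 715 CPM. The other named genes were Ccni, D4Wsu53e, Rarg, Cyth4, H2-Q5, Nfkb2, Senp7, Tmem30a, BC031181 and Ppp1r12a, and against all negatives their differences ran only from -9.80 points for Ppp1r12a to 13.9 points for Ccni. Ccni, Rarg, Nfkb2, Tmem30a and BC031181 were detected in a larger share of positive than of all negative cells.

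**Figure D4:**
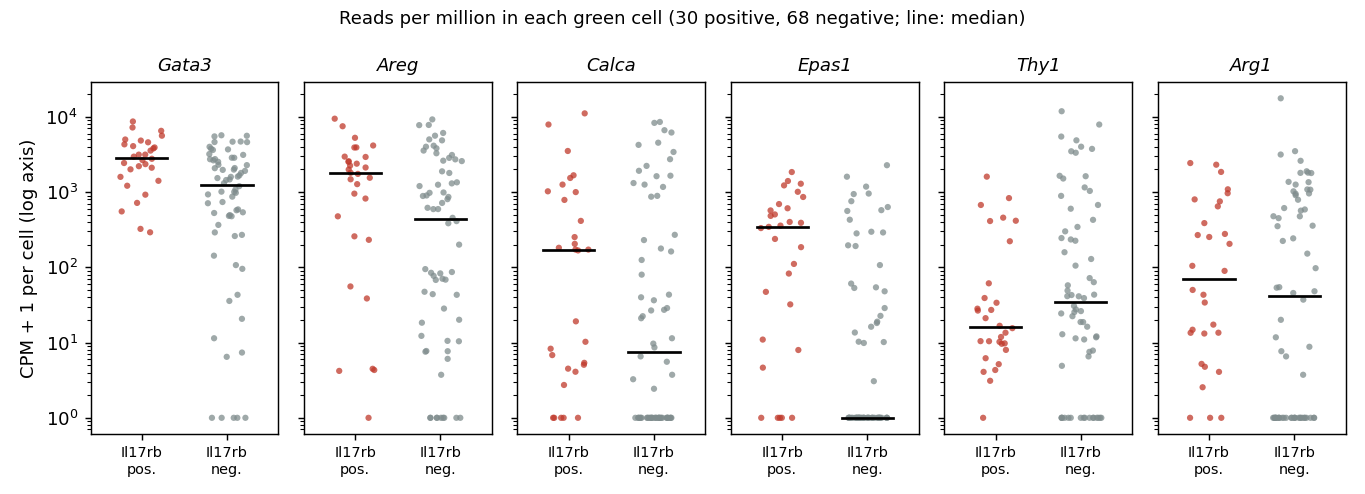
CPM plus 1 in each green cell (log axis) for Gata3, Areg, Calca, Epas1, Thy1 and Arg1, with the median as a line, in the 30 Il17rb-positive (red) and 68 Il17rb-negative (grey) cells without matching. The median Epas1 level is 338 CPM in positive and 0 in negative cells, and the highest Thy1 values lie among negative cells.

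The receptor and its signalling chain were unevenly covered. Il17ra, the partner subunit of the interleukin-25 receptor, was detected in 4 of 30 positive cells and in 13.3% of both positive and matched negative cells. Of 16 compared genes of interleukin-25 signalling, 9 had a larger and 6 a smaller share in positive cells, and their median difference was 3.33 points. Among all compared genes 56.6% had larger shares, with a median of 2.22 points, so this list lay near all genes. On the scale of equal depth described further on, its median was -0.18 points. Traf3ip2, the gene of the adaptor Act1, was detected in 26.7% of positive and 6.67% of matched negative cells. It was found in 8 of 30 positive and 3 of all 68 negative cells, so it entered the comparison only through its share in positive cells. Stat3, a transcription factor of many cytokine receptors, was detected in 66.7% and 41.1%, with mean levels of 794 and 308 CPM. Without the CD3 chain cells both Traf3ip2 and Stat3 differed by only 2.30 points.

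The NF-kB subunit genes had smaller shares in positive cells against matched but not against all negatives. Nfkb2 was detected in 26.7% of positive and 65.6% of matched negative cells, and Rela in 13.3% and 37.8%, although against all negatives the shares of both (25% and 11.8%) were slightly below those of positive cells. Rela was at -10.3 points without the CD3 chain cells. Nfkb1 was detected in 70.0% and 76.7%, and in 48.5% of all negatives. Traf6 was found in 3 positive and 2 negative cells, too few to compare.

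Of 16 compared feedback genes that NF-kB and MAP kinases are known to induce, 10 had larger and 6 smaller shares in positive cells, with a median of 10.6 points. Among all compared genes 1705 of 3013 (56.6%) had larger shares, so the count is near that of all genes. Nfkbid, an inhibitor-like regulator of NF-kB, was detected in 76.7% of positive and 44.4% of matched negative cells, with median reads of 262.5 in positive and 3 in all negative cells. Nfkbie, another inhibitor of the family, was found in 40.0% and 13.3%, and the ubiquitin ligase gene Birc3 in 53.3% and 28.9%. The deubiquitinase gene Cyld (33.3% and 10%) and the MAP kinase phosphatase gene Dusp1 (86.7% and 62.2%) were also past 20 points, although Dusp1 turned to -1.59 points with Il17rb at 4 reads and to -4.44 points with mitochondrial reads under 10%, and Cyld to 9.20 points without the CD3 chain cells. Cish, a feedback inhibitor of cytokine receptors, was detected in 60% of positive and 81.1% of matched negative cells, but in 38.2% of all negatives. The other genes with smaller shares were Tnip1, Socs1, Nfkb1, Socs2 and Zc3h12a, from -14.4 to -5.56 points.

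Effector products of ILC2 lay on both sides. Areg, which encodes amphiregulin, a growth factor of tissue repair (chromosome 5, 91139599 to 91148432, plus strand), was detected in 25 of 30 positive cells (83.3%, interval 65.3 to 94.4%), in 54.4% of matched and in 58.8% of all negatives. Its reads ran from 0 to 4054 with a median of 510.5 in positive and from 0 to 1839 with a median of 40 in negative cells, and mean levels were 2153 CPM against 975 CPM in matched negatives. Calca, which encodes calcitonin gene-related peptide, a regulator of ILC2, was detected in 53.3% (interval 34.3 to 71.7%), 22.2% and 30.9%. In the cells with 1500 to 3000 genes the Calca shares were 47.6% and 42.3%, whereas those of Areg were 95.2% and 65.4%.

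Il5, the eosinophil growth factor, was detected in 13 of 30 positive cells (43.3%, interval 25.5 to 62.6%), in 26.7% of matched and in 14.7% of all negatives, which is a difference of less than 20 points after matching. Il13 was found in 5 positive and 3 negative cells. The myeloid growth factor gene Csf2 was detected in 50.0% of positive and 54.4% of matched negative cells. Arg1, the arginine-degrading enzyme of ILC2, was detected in 50.0% of positive and 77.8% of matched negative cells but in 41.2% of all negatives. Over the 9 effector genes compared, 4 had a larger and 5 a smaller share in positive cells, with a median of -3.33 points that became 19.0 points without the CD3 chain cells.

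Genes that respond to cyclic AMP were mostly on the positive side, 12 of 14 with a median of 10 points. Among all compared genes 56.6% were, with a median of 2.22 points. On the scale of equal depth described further on, the median of the cyclic AMP list was 2.51 points. Crem, a transcriptional regulator that cyclic AMP induces, was detected in 17 of 30 positive cells (56.7%) and in 24.4% of matched and 25% of all negatives, with mean levels of 406, 77.7 and 131 CPM. Rgs2, which dampens G protein signalling, was detected in 83.3% and 57.8% of positive and matched negative cells, and the AP-1 subunit gene Fosl2 in 83.3% and 60%. Rgs2 turned to -3.45 points without the CD3 chain cells. Immediate early genes, which tissue dissociation is known to raise as well, leaned the same way in 14 of 17, again with a median of 10 points. Their median at equal depth was 5.51 points. Nr4a1 and Fosl2 belong to both lists, so the 2 counts partly repeat the same genes. Among the immediate early genes Junb was detected in all positive cells and 87.8% of matched negatives, Nr4a1 in 96.7% and 80.0%, and Ier5 in 56.7% and 33.3%.

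Genes of the inflammatory or intestinal ILC2 state were counted by direction only, although Thy1 is known as low in that state. The count is therefore no measure of the state. Of 11 compared, 7 had larger and 4 smaller shares in positive cells. The integrin subunit gene Itga4 was detected in 80.0% and 54.4% of positive and matched negative cells, and the tissue retention gene Cd69 in 76.7% and 52.2%, although mean levels of both were below those of matched negatives (482 against 536 CPM, and 869 against 1025 CPM). Thy1, low in that state, and the adhesion receptor gene Cd44 (30% and 61.1%, with 25% of all negatives) had smaller shares. Of 9 genes linked with ILC2 of lung or fat, 6 had larger and 3 smaller shares, among them the triglyceride synthesis gene Dgat1 at 66.7% and 43.3%. Without the CD3 chain cells Cd69 differed by 11.5 points and Dgat1 by 0.

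Lineage factors other than Gata3 lay on both sides. Of 13 compared ILC2 identity factors, 7 had larger and 4 smaller shares in positive cells, with a median of 1.11 points, and none was past 20 points. Mean levels differed more. Bcl11b was detected in 66.7% of positive and 55.6% of matched negative cells, with 546 and 235 CPM. Rbpj (229 and 693 CPM), Ikzf2 (64.6 and 230 CPM) and Maf (39.1 and 88.4 CPM) had lower mean levels in positive cells. Id2 was detected in 96.7% and 100%, and Ets1 in 83.3% of both. Rora, which ILC2 need to develop, was detected in 3 cells of each group.

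Receptors that direct and restrain lymphocytes were compared next. The chemokine receptor gene Cxcr4 was detected in 36.7% of positive and 8.89% of matched negative cells. All 4 compared checkpoint and costimulatory receptor genes had larger shares in positive cells, including Pdcd1, the gene of PD-1, at 46.7% and 24.4%, and the costimulator gene Icos at 60% and 40.0%, although each of these 2 differences turned negative under 1 alternative (-1.11 and -1.59 points, with the limit for other genes and for Il17rb at 64 reads). All 8 compared genes of tissue egress and residency had larger shares too, with a median of 8.33 points. Among all compared genes 56.6% had larger shares, and Rgs2 and Nr4a1 of the egress list were also counted among cyclic AMP genes. These lists hold few genes, and S1pr1, the egress receptor, was detected in no cell of either group.

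Some genes seen in ILC3 or progenitors were also more often found in positive cells. Ahr, the aryl hydrocarbon receptor gene, was detected in 40.0% of positive, 11.1% of matched negative and 11.8% of all negative cells. Its mean level, however, was 79.5 CPM in positive cells against 122 CPM in all negatives and 18.0 CPM in matched ones, and its difference was 14.9 points without the CD3 chain cells. Ltb, a lymphotoxin gene of ILC3, was detected in 70.0% and 71.1% of positive and matched negative cells. The interleukin-10 receptor subunit gene Il10rb was detected in 33.3% and 3.33% of positive and matched negative cells, and the death receptor gene Tnfrsf25, whose ligand costimulates ILC2, in 26.7% and 48.9%. Without the CD3 chain cells these 2 differed by 17.2 and -17.2 points.

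Signalling molecules that ILC2 share with T cells were more often detected in positive cells in 12 of 16 cases, with a median of 12.8 points. Among all compared genes 56.6% were. On the scale of equal depth described further on, the median of this list was 0.88 points. The Src family kinase gene Fyn was detected in 40.0% of positive and 12.2% of matched negative cells, Nfatc2 in 26.7% and 5.56%, Malt1 in 26.7% and 6.67%, and the kinase gene Prkcq in 60% and 40.0%. Sh2d2a, a T cell adaptor gene, was detected in 66.7% and 44.4%, with mean levels of 280 and 515 CPM that ran the other way. Without the CD3 chain cells Fyn differed by 2.30 points, Malt1 by 12.6 and Nfatc2 by 16.1.

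Metabolic genes differed by single members more than by list. In glycolysis 9 of 11 genes had larger shares, but the median was 3.33 points, near that of all genes. Gpi1 (63.3% and 25.6%) and the glucose transporter gene Slc2a1, detected in 8 of 30 positive cells, in none of the matched negatives and in 2 of 68 negatives, were past 20 points. Slc2a1 entered the comparison, at 10.2% of all cells, only through its share in positive cells, so its difference is a description set in part by that limit. All 6 compared genes of amino acid stress and autophagy had smaller shares in positive than in matched negative cells, with a median of -15.6 points, but without matching that median was 7.94 points. Slc3a2, an amino acid transporter subunit gene, was detected in 56.7% and 80.0%, and the autophagy receptor gene Sqstm1 in 43.3% and 64.4%. Against all negatives (35.3% and 26.5%) both were on the positive side instead, and without the CD3 chain cells they differed by -17.2 and -9.20 points.

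Genes that respond to glucocorticoid and fasting, the subject named in the title of the study, lay close to all genes. Of 12 compared, 7 had larger and 5 smaller shares in positive cells, with a median of 5.56 points. Lists of general cell machinery gave medians of like size, 4.44 points for 24 genes of the respiratory chain, 2.22 points for 21 of the proteasome and 5 points for 24 splicing factors. Differences of a few points in a list are thus found in machinery that all cells share.

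Protein folding and immune response genes were mixed. The endoplasmic reticulum chaperone genes Hspa5 (70.0% and 34.4%) and Calr (56.7% and 25.6%) and the disulfide isomerase gene Pdia3 (56.7% and 32.2%) had larger shares in positive cells, as did the cytosolic Dnaja1 (96.7% and 74.4%). Hsph1 (26.7% and 58.9%) and Cct7 (33.3% and 57.8%), both cytosolic folding factors, had smaller ones. The interferon regulatory factor genes Irf1 (33.3% and 58.9%) and Irf7 (13.3% and 33.3%) had smaller shares, and Irf1 was found in 33.8% of all negatives. Without the CD3 chain cells Cct7 turned to 1.15 points, and Dnaja1 (9.20), Pdia3 (13.8) and Irf7 (-8.05) came under 20 points. Txnip, a glucose- and glucocorticoid-responsive gene, was detected in 40.0% and 62.2%, and in 38.2% of all negatives.

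**Figure D5:**
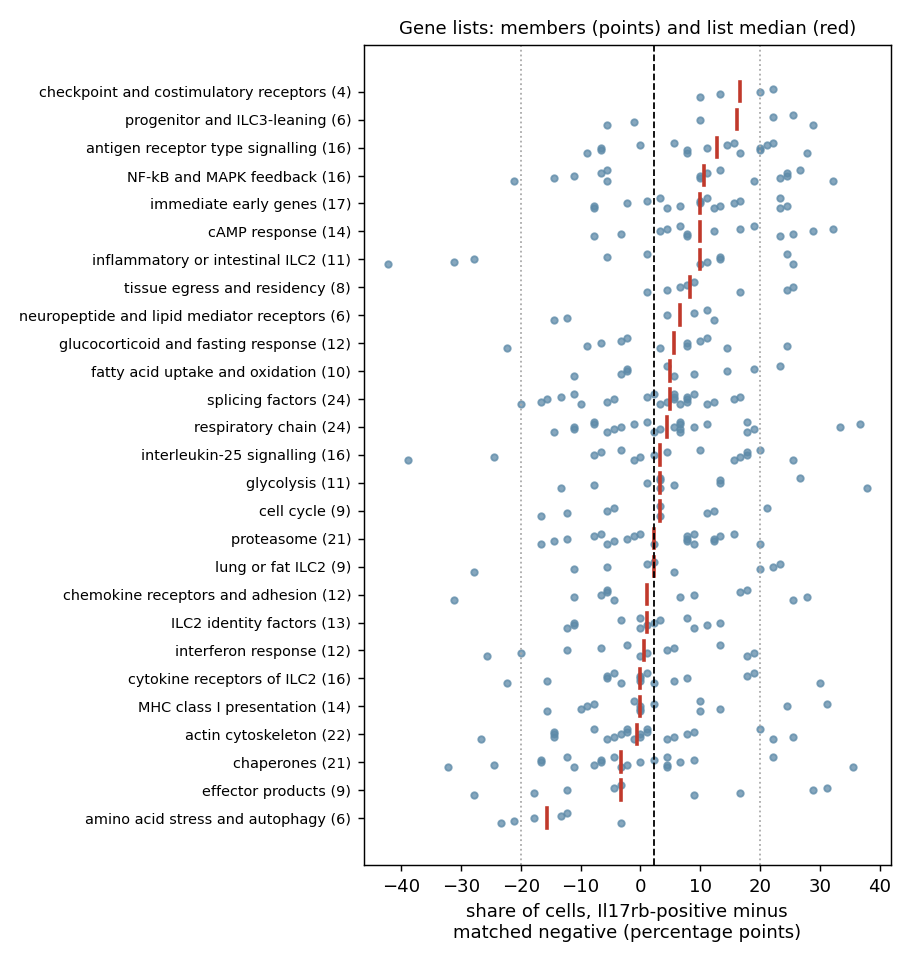
Difference in share of cells, Il17rb-positive minus matched negative (percentage points), for each compared gene (points) and the median (red) of 27 gene lists, with the number of compared genes in brackets. The dashed line is the median of all compared genes, 2.22 points, and dotted lines mark 20 points either way; most list medians lie close to the dashed line, and amino acid stress and autophagy is the lowest at -15.6 points.

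A comparison that gave every cell equal depth left few differences of 20 points, a limit that is harder to reach on its scale of lower shares. For each cell the expected chance of at least 1 read was computed after drawing it down to 1000 reads, and its mean per group was compared with the same matched negatives. Many shares are far lower on this scale, such as 20.3% against 80.0% at 16 reads for Bzw2 in positive cells. Counts at 20 points therefore cannot be set against those at 16 reads. Of the 290 higher and 183 lower genes at 16 reads, 275 and 171 had the same sign here and in mean CPM. The median of all genes was 0.35 points on this scale, and 12 genes were higher and 13 lower by 20 points. Among the higher ones, members of the gene lists were Areg (64.2% and 33.3%), Tnfaip3, Gata3 (84.6% and 61.3%), Nfkbid (46.7% and 24.2%) and Nfkbia. Gpr65 (35.5% and 9.19%) and Epas1 (28.7% and 7.63%) were higher too. Both had been named by largest difference, for which a positive difference on this scale was a condition of choice. Tnfaip3 and Nfkbia, which both restrain NF-kB, had expected shares of 90.1% and 64.3%, and of 91.0% and 69.7%.

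The other 5 higher genes were chosen after their values were seen. They were Hilpda, a hypoxia-induced lipid droplet gene, at 58.8% and 30.1%, Lmo4, a transcriptional cofactor, at 76.5% and 51.8%, the small GTPase gene Cdc42, Fam65b and Kctd12. Hilpda reads had a median of 435 in positive and 7 in negative cells. The 13 lower genes were Thy1 (11.5% and 40.5%), Arg1, Txnip, BC031181 and, also chosen after their values were seen, Nrgn, Nedd4, Tmem176b, Rnf7, Rac1, Ppp1ca, Nfyc, Ypel3 and Atrx. Nrgn, a calmodulin-binding protein gene, had expected shares of 6.44% and 36.0%.

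Seen from the other genes, Il17rb-positive cells made up different shares of marker-bearing cells. They were 13 of 23 cells with Il5 (56.5%, interval 34.5 to 76.8%) and 17 of 75 cells without it (22.7%, interval 13.8 to 33.8%). They were 27 of 56 cells with Klrg1 (48.2%) and 3 of 42 without it (7.14%). Cells with Il5 had a median of 2665 genes against 1528 in cells without it, and for Klrg1 the medians were 2144.5 and 1067, so depth moved with both. Its part in these shares was not tested.

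Dividing cells were few. At least 10 of 36 cell cycle genes were detected in 3 green cells, of which 2 were Il17rb-positive, with 96 and 178 Il17rb reads, and 1 was negative, with 2. The negative one carried 5.56% of the matching weight.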

How the data were processed

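Plate 1 of a SORT-seq series on mouse pancreatic ILC2 was analysed. The authors deposited raw read counts per row and well (not molecular identifiers) and a sort record whose red fluorescence intensity is in arbitrary units, per the file headers. STAR, STARsolo, edgeR and mm10 appear in the submitters' processing notes, with no version or role. Row names were used for plate 1 only: mitochondrial rows held 5.63% of reads on plate 1 but at most 0.0531% on plates 2 to 4, and the 78 spike-in rows held 43.2, 0.113, 44.1 and 21.7% on plates 1 to 4. The 1152 count columns of plates 2 to 4 were used for no gene.

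Cells needed 500 genes at 1 read and under 25% mitochondrial reads, which kept 98 of 151 green wells, with 17825 gene reads or more each. With 1 sample there was no test. Shares of cells at 16 reads, shares after drawing to 1000 reads, and log2 ratios of mean CPM (10 CPM added) were computed with Python 3.11.15, numpy 2.4.6, pandas 2.3.3 and scipy 1.17.1, and checked on simulated data. Doublets were not called. The deposited sort record has 1 row per well with the colour of the sorted cell, and does not count the cells in a well. The part of doublets in the results was not tested.

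Members, gene lists and markers were chosen with earlier results of these data known. Named genes were those with the 12 largest differences either way for which the 3 measures had the same sign (ribosomal protein genes, numbered models, pseudogenes and mitochondrial genes skipped, ties broken by name), plus members of the gene lists. Alternatives changed the read limits, filters and matching. Coordinates are from GENCODE M21. Some results, 1 of the named lower genes among them, are not reported here.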

Additional observations from a re-analysis of the deposited data

How the results depend on the processing

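The Il17rb-positive share was 42.9% at 4 reads and 21.4% at 64. Drawing down lowers the shares of cells, so its counts at 20 points cannot be set against the others. Genes 20 points higher, 290 as reported, numbered 462 with Il17rb at 64 reads, 514 against negatives without any Il17rb read, 578 with mitochondrial reads under 10%, 180 with other genes at 64 reads, 445 with 1 nearest negative used once, 1017 without matching and 12 drawn down to 1000 reads. Genes 20 points lower, 183 as reported, numbered 115 with Il17rb at 4 reads, 383 with mitochondrial reads under 10%, 98 with other genes at 64 reads, 28 with 1 nearest negative used once, 0 without matching, 120 when matched by gene reads, 13 drawn down and 63 in cells with 1500 to 3000 genes. Leaving out the heaviest matched negative gave 313 and 209, and leaving out cells with a CD3 chain gene 356 and 247. These settings and the range of genes were chosen after seeing the data.

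Of 47 named genes past 20 points on the higher side, 36 kept their sign under all 18 alternatives, against 9 of 30 on the lower side. These counts do not compare the stability of the 2 sides. Leaving out matching raised the median of all genes to 15.8 points, which favours the higher side. For genes named by largest difference, the same sign in the drawn-down and CPM measures, 2 of the alternatives, was a condition of choice. Without matching, the difference became 13.9 points for Ccni, 4.61 for Rarg and Hsph1, 1.67 for Nfkb2, 2.16 for Tmem30a, 0.882 for BC031181, 7.55 for Tnfrsf25, 1.57 for Rela, 21.8 for Cish, 8.82 for Arg1, 5 for Cd44, 21.4 for Slc3a2, 16.9 for Sqstm1, 1.76 for Txnip, 4.51 for Irf7, 9.80 for Cct7, 15.4 for Nedd4, 10.3 for Rnf7, 9.51 for Rac1, 4.90 for Nfyc and 21.7 for Atrx. Other reversals were Dusp1 (-1.59 with Il17rb at 4 reads, -4.44 with mitochondrial reads under 10%), Icos (-1.59 with Il17rb at 64 reads), Pdia3 (-13.3) and Hilpda (-4.44) with other genes at 4 reads, Rela (8.89), Pdcd1 (-1.11) and Sh2d2a (-1.11) with other genes at 64 reads, Itga4 (-0.185) and Sh2d2a (-6.84) drawn down, Sqstm1 (0.549) in cells with 1500 to 3000 genes, and Rgs2 (-3.45) and Cct7 (1.15) without the CD3 chain cells. On the log2 CPM scale Itga4 (-0.15), Cd69 (-0.23), Dnaja1 (-0.042) and Sh2d2a (-0.86) were lower. The cause was not tested. No paired analysis was possible because both groups come from 1 plate, and no replicate could be left out. Depth limits what a negative cell shows, and 27 negatives stand behind every matched share.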
